A study of Canis lupus familiaris with 8 samples.

Results

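The cytochrome P450, aldehyde and aldo-keto enzyme, transferase, superoxide dismutase, peroxidase and thioredoxin genes of the dog mitral valve leaflet encode enzymes that oxidise, reduce, conjugate or detoxify reactive and foreign molecules. A gene was a member if its array symbol began with CYP and a digit, or with GST, MGST, UGT, AKR, ALDH, PRDX, GPX, SOD or TXN, and if the platform annotation gave its probe set that symbol alone. The rule found 57 genes among 6540 with a symbol of their own, on 101 probe sets of 23913, and each gene was read from its brightest probe set. The rule itself used no measured value apart from the mean brightness over the 8 dogs, but the members were chosen with earlier results of these data known. The members were 16 CYP genes, 9 ALDH, 3 AKR, 6 GST or MGST, 2 UGT, 2 SOD, 5 GPX, 6 PRDX and 8 TXN genes.

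These enzymes work in steps. Cytochromes P450 insert oxygen into drugs, steroids and fatty acids, aldehyde dehydrogenases and aldo-keto reductases remove the reactive aldehydes and ketones that oxidation leaves, and glutathione transferases and glucuronosyltransferases attach a soluble group to the product. Superoxide dismutases turn superoxide into hydrogen peroxide, which glutathione peroxidases and peroxiredoxins then reduce at the expense of glutathione and thioredoxin. The drug-metabolising P450s and glucuronosyltransferases are best known from liver, while heart muscle, with its many mitochondria, is known for high levels of the mitochondrial peroxide-removing enzymes.

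RNA came from the anterior mitral valve leaflet of 8 dogs, 1 array per dog, with 4 control dogs and 4 dogs affected by degenerative mitral valve disease, in which the leaflets thicken and leak. All 4 controls were beagle crosses, and the diseased leaflets came from a Lhasa apso (affected 1), a Dachshund (affected 3) and Miniature poodles (affected 2 and affected 4), so breed and disease cannot be told apart. The labels give no treatment, time point or age. The values are linear array signals that the authors had scaled to a trimmed mean near 500.1 on every array, and the number of arrays limits their precision. In a whole leaflet, fewer cells of a type and less RNA per cell cannot be told apart.

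Of the fibroblast and matrix genes that mark leaflet tissue, 6 of 8 were named on the array and all 6 were tested, with summed signals of 41621 to 108106 in controls and 83009 to 113396 in affected dogs. Heart muscle RNA was also present on every array. The mean log2 signal of its 13 tested markers ran from 10.12 in affected 3 to 13.86 in control 2, with a control mean of 12.43 ± 1.13 (SD, n = 4) and an affected mean of 11.96 ± 1.32 (SD, n = 4; two-sided exact permutation p = 0.6). Macrophage markers, 10 of 12 named, had summed signals of 1117 to 15967 in controls and 16305 to 40524 in affected dogs. Endothelial markers, 6 of 9 named, had sums of 8236 to 11939 and 15904 to 28270. Neither sum overlapped between the groups, by a narrow margin for macrophages. Single markers did overlap, such as C1QA (2664 in control 1, 686 in affected 4) and PECAM1 (5954 in control 1, 5487 in affected 2). Others, such as CD14 and ENG, did not. Control 2 had the most heart muscle signal and the lowest macrophage and fibroblast sums of the 8 dogs. Fat cell markers, 4 of 8 named, reached a summed signal of 10413 in control 3 and lay between 328 and 2285 in the other controls and between 412 and 694 in affected dogs. Most of the sum in control 3 was ADIPOQ, at 9835. PPARG lay between 176 and 242 in controls and differed by 0.22 on the log2 scale, with overlap. Among controls, each of the 4 markers was highest in control 3 and lowest in control 2. The excess of 3′ over 5′ GAPDH signal, a measure of RNA breakdown, averaged 0.16 in controls and 0.37 in affected dogs on the log2 scale (two-sided exact permutation p = 0.171). For actin the same measure averaged -0.70 in controls and -0.31 in affected dogs (two-sided exact permutation p = 0.486). It was above 0 only in affected 1 and lowest in control 2, at -1.82. Of the hepatocyte markers, 6 of 9 were named, with summed signals of 2090 to 3701 in controls and 3264 to 7974 in affected dogs, and ALB, APOA2 and APOB were too dim to be tested, with 3, 5 and 7 of 8 dogs at the floor of 34.2, the signal under which values were not told apart. The 3 hepatocyte markers that were tested, TTR, FGB and SERPINA1, are also made outside the liver. SERPINA1 ran from 68.1 to 543 in controls and from 719 to 5900 in affected dogs. TTR and FGB overlapped between the groups, with log2 differences of 0.29 and -0.29, so the higher affected sums were not shared by all markers. The part of these cell types and of RNA quality in the values of the enzymes was not tested, apart from a fit with the heart muscle mean as a covariate.

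In affected against control leaflets, 51 of the 57 members passed the filter on dim probe sets. Mean signals of 22 of them were higher and of 29 lower in affected dogs. Their log2 differences had a median of -0.04, where the median over all 14705 tested probe sets was 0.01. The members that stood lowest in affected leaflets were MGST2, AKR7A2, ALDH7A1 and CYP3A26, at 0.266 to 0.364 of the control signal, and those that stood highest were SOD2 and CYP1B1, at 2.74 and 2.71 times. No member passed limma at an adjusted p of 0.05 over all tested probe sets, where 0 of 14705 (0%) passed, and the smallest adjusted p among members was 0.308. At an unadjusted p under 0.05 there were 4 members higher (CYP1B1, ALDH8A1, SOD2 and TXN) and 7 lower (CYP3A26, AKR7A2, ALDH7A1, MGST2, GSTA4, CYP2B6 and PRDX2). Together these are 21.6% of the tested members, beside 7.83% of all tested probe sets, of which 4.02% were higher and 3.81% lower. The groups did not overlap for 2 members that were higher in affected dogs, ALDH8A1 and TXN, and for 6 that were lower, which is 15.7% of members beside 4.66% of all tested probe sets (2.35% higher and 2.31% lower). Over the brightest probe sets of all 5437 tested genes, with the brightest taken as for the members, the shares were 8.72% and 5.08%. Because the members were chosen with earlier results known, these shares are a description and were not tested against each other. These counts moved with single dogs. Over all tested probe sets, the 1151 with an unadjusted p under 0.05 became 966 without control 1 and 1224 without control 3. They became 760 without control 4, 670 without affected 1 and 930 without affected 4. The 4 higher members at an unadjusted p under 0.05 became 2 without control 1, 2 without control 3, 1 without affected 1 and 1 without affected 4, and the 7 lower became 4 without control 4. The 2 higher members without overlap became 4 without control 2 and 4 without affected 3, and the 6 lower became 10 without affected 3. With 1 dog fewer the groups also fail to overlap more often by design, at 9.03% of all tested probe sets without control 2 and 13% without affected 3, in either direction.

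**Figure D1:**
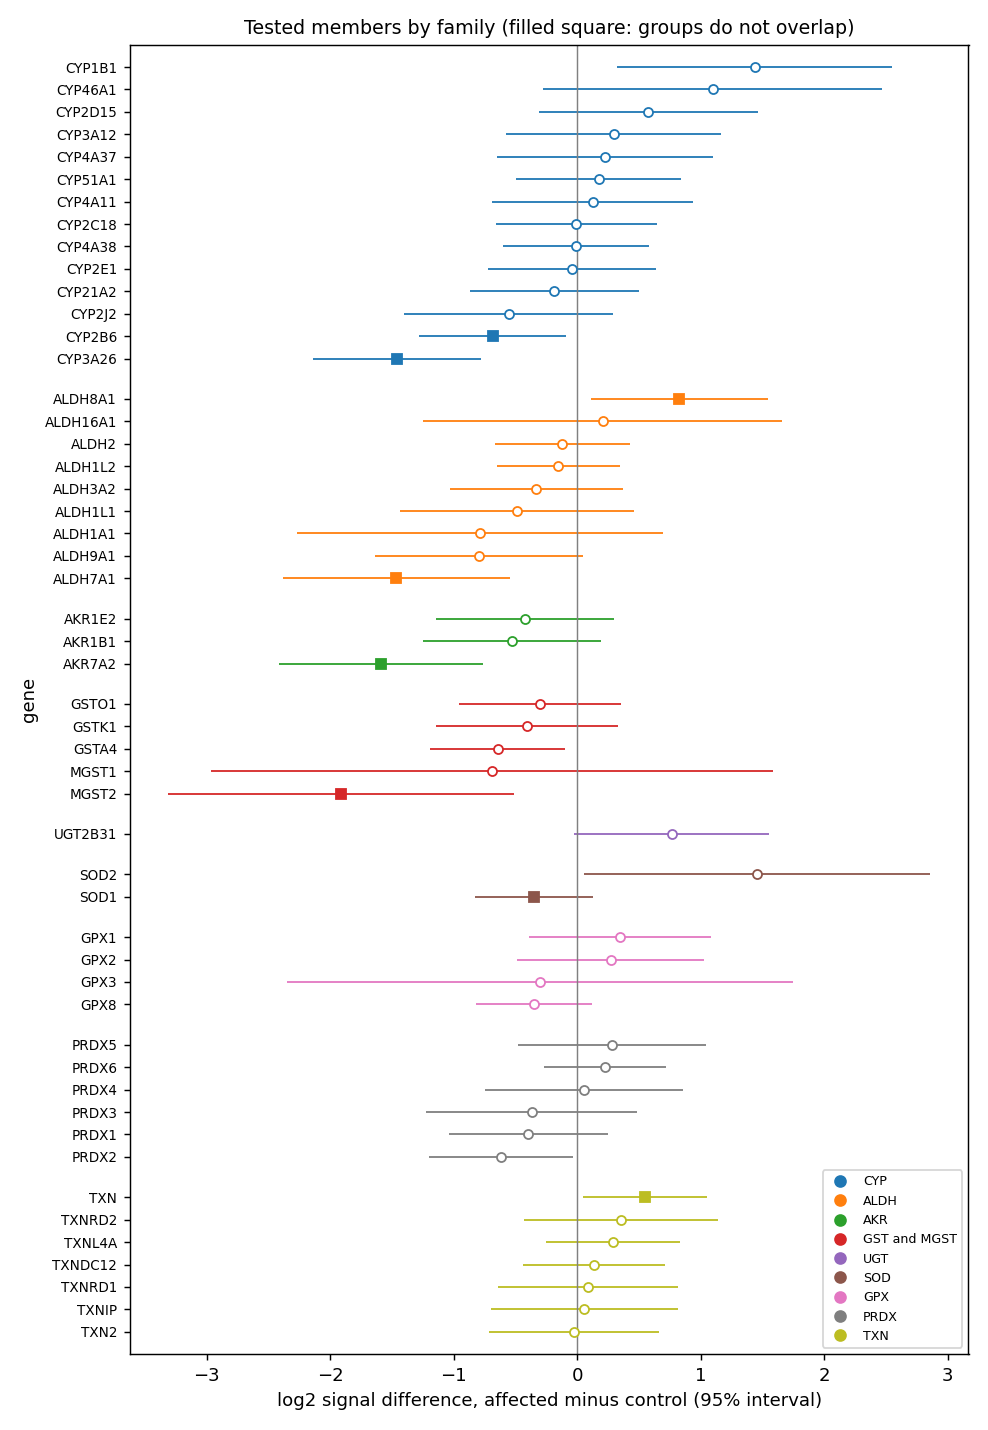
Log2 signal difference (affected minus control, horizontal axis) of the 51 tested members, grouped by family, with the 95% interval from limma as a line; filled squares mark the 8 members whose groups do not overlap. The 5 glutathione transferases and 3 aldo-keto reductases all lie to the left of 0, and 40 of the 51 intervals include 0.

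The families differed in how their members lay. All 5 tested glutathione transferases and all 3 aldo-keto reductases had lower means in affected leaflets, with median log2 differences of -0.64 and -0.53. Of the 9 aldehyde dehydrogenases 7 were lower (median -0.33), whereas 6 of 7 thioredoxin genes were higher (median 0.14). The cytochromes P450 were split 7 to 7 (median 0.06), the peroxiredoxins 3 to 3 (median -0.16) and the glutathione peroxidases 2 to 2 (median -0.01). These are counts of means, since no member passed the threshold, and the difference between families was not tested. Without affected 2 the P450 median was -0.15 and without control 2 it was 0.19. Without affected 3 the glutathione peroxidase median was 0.33. Without control 2 the aldehyde dehydrogenase median was -0.14, the peroxiredoxin median 0.10, the glutathione peroxidase median 0.25 and the thioredoxin median 0.29. Members near 0 also changed side with the scaling, TXNIP to -0.017 and PRDX4 to -0.018 with arrays centred on the median, and PRDX4 to -0.028 and TXN2 to 0.0030 with quantile normalization.

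Among the enzymes that act on foreign compounds, CYP3A26, a dog member of the CYP3A family that oxidises many drugs, had the smallest unadjusted p of all members. Its signals were 265, 481, 241 and 379 in controls 1 to 4 and 93.3, 131, 149.6 and 111 in affected 1 to 4. Every affected dog lay below every control. The affected mean was 0.364 of the control signal, a log2 difference of -1.46 ± 0.31 (SE; unadjusted p = 0.0007, limma adjusted p = 0.308). The other probe set of CYP3A26, an _s_at set that can pick up related sequences, was under the floor in all 8 dogs. The reading of CYP3A26 thus rests on 1 probe set, whose affected signals were low, beside 99.8 at the 40th percentile of all signals. CYP3A12, the near relative of CYP3A26 and the CYP3A form best known from dog liver, had signals of 65.6 to 119.7 in controls and 57.5 to 159.6 in affected dogs, and its difference of 0.30 ± 0.39 had a 95% interval from -0.57 to 1.16. Its probe set is an _x_at set, which can cross-hybridise, so the close members of this family cannot be separated with certainty on this array.

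CYP2B6, listed in RefSeq also under the older dog name CYP2B11 and known for oxidising anaesthetics such as propofol, had signals of 283, 313, 335 and 425 in controls and 151, 248, 199 and 254 in affected dogs. The groups did not overlap, although affected 4 and control 1 were close, and the difference was -0.69 ± 0.27 (limma adjusted p = 0.604). CYP2D15, CYP2C18 and CYP2E1, further drug-metabolising forms, differed by 0.58 ± 0.40, -0.01 ± 0.29 and -0.04 ± 0.31 with overlapping groups. For CYP2E1, which handles ethanol and small solvents, signals lay between 111 and 218 in controls and 117 and 172 in affected dogs, and the 95% interval of the difference was -0.72 to 0.64. CYP1A2 was too dim to be tested, at 34.9 to 72.2 in controls and 58.4 to 136 in affected dogs.

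CYP1B1, a P450 found mostly outside the liver that acts on oestrogens and retinoids, had the greatest difference in the other direction within this family. Its signals were 3499.9, 555, 1707 and 2551 in controls and 3486, 5877, 5580.4 and 3972 in affected dogs. The groups touched, because control 1 lay just above affected 1, and control 2 lay far below the other controls. The log2 difference of 1.44 ± 0.50 (limma adjusted p = 0.549) became 0.90 if control 2 was left out and 0.91 with array weights. In control 2 the macrophage and fibroblast markers were also lowest and heart muscle markers highest, and the difference was 1.29 with the heart muscle mean as a covariate.

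The P450s of sterols and steroids showed no member without overlap. CYP51A1, the lanosterol demethylase of cholesterol synthesis, had signals of 738 to 1294 in controls and 758 to 1571 in affected dogs and differed by 0.17 ± 0.30, with a 95% interval from -0.49 to 0.84. CYP46A1, which hydroxylates cholesterol and is best known from brain, differed by 1.10 ± 0.62 (0.60 without affected 1), with the highest value of 880.3 in affected 1 and the other affected dogs between 186 and 301, inside the control range of 71.4 to 322. The adrenal steroid hydroxylase CYP21A2 differed by -0.19 ± 0.31, and CYP11A1, which starts steroid synthesis, was under the floor in 6 of 8 dogs. Among the P450s of fatty acids, CYP2J2, an epoxygenase of arachidonic acid known from heart, differed by -0.56 ± 0.38, and the omega-hydroxylases CYP4A11, CYP4A37 and CYP4A38 by 0.12 ± 0.37, 0.22 ± 0.39 and -0.01 ± 0.27.

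Among the aldehyde dehydrogenases, ALDH7A1, which acts in lysine breakdown and on aldehydes from lipid peroxidation, was lower in every affected dog than in every control. Its signals were 889.5, 819, 733 and 999.8 in controls and 140.0, 357, 669.7 and 275 in affected dogs, so the controls were close together and the affected dogs ranged from affected 1, the lowest, to affected 3, just under control 3. The difference was -1.46 ± 0.42 (limma adjusted p = 0.452), with SDs of 0.19 in controls and 0.93 in affected dogs. Its other 2 probe sets were too dim to be tested. ALDH8A1, an enzyme of tryptophan breakdown, lay the other way, at 114, 139, 136 and 137 in controls and 241, 375, 140.2 and 231 in affected dogs. Its difference was 0.83 ± 0.32 (limma adjusted p = 0.604), and affected 3 stood barely above control 2. Its signals were low, and its other 2 probe sets were too dim to be tested.

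ALDH9A1, which makes the precursor of carnitine, differed by -0.80 ± 0.38, with signals of 629.9 to 1343 in controls and 373 to 1102 in affected dogs. ALDH1A1, which makes retinoic acid from retinal, had signals of 3743, 789, 3641 and 4044 in controls and 468, 1328, 2442 and 3205 in affected dogs. Control 2 was far below the other controls, the groups overlapped, and the difference of -0.79 ± 0.67 was -1.36 without control 2 and -0.23 without affected 1. ALDH2, the mitochondrial enzyme that clears acetaldehyde and hydroxynonenal, had signals of 8728 to 9851 in controls and 10516, 5504, 9652 and 9616 in affected 1 to 4. Its difference was -0.12 ± 0.25 with a 95% interval from -0.67 to 0.43, and affected 2 was the dog that lay apart. ALDH3A2, which oxidises fatty aldehydes, and the folate enzymes ALDH1L1 and ALDH1L2 differed by -0.33 ± 0.32, -0.49 ± 0.43 and -0.15 ± 0.22, and ALDH16A1, the remaining member of the family, by 0.21 ± 0.65.

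**Figure D2:**
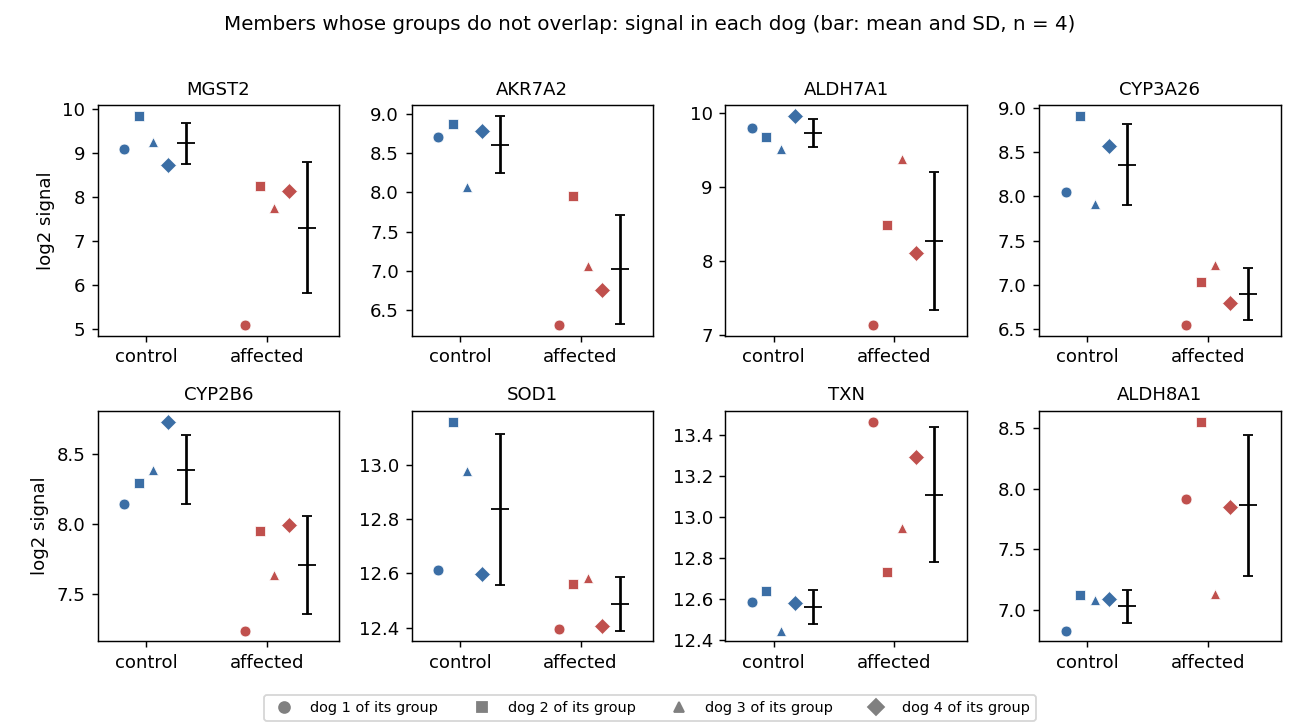
Log2 signal in each dog for the 8 members whose groups do not overlap, controls in blue and affected dogs in red, with the marker shape giving the number of the dog and the bar giving the mean and SD (n = 4). MGST2, AKR7A2, ALDH7A1, CYP3A26, CYP2B6 and SOD1 are lower and TXN and ALDH8A1 higher in all 4 affected dogs. The gap between the groups is widest for CYP3A26 and MGST2. It is narrow for AKR7A2, ALDH7A1, CYP2B6 and TXN and narrowest for SOD1 and ALDH8A1.

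Of the aldo-keto reductases, AKR7A2, which reduces succinic semialdehyde and aflatoxin aldehydes, had signals of 418, 469, 269 and 442 in controls and 79.2, 248, 133 and 108 in affected dogs. The groups did not overlap, affected 2 coming closest to control 3, and the log2 difference was -1.59 ± 0.37 (unadjusted p = 0.00149, limma adjusted p = 0.337). AKR1B1, the aldose reductase that turns glucose into sorbitol, differed by -0.53 ± 0.33, with signals of 3957 to 9005 in controls and 2411 to 4857 in affected dogs. Its highest value was that of control 2, and without that dog the difference was -0.28. AKR1E2 differed by -0.42 ± 0.33 and by -0.11 without affected 4, whose signal of 374 stood apart from 768 to 1001 in the other affected dogs.

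The glutathione transferases were led by MGST2, a membrane-bound transferase that can also make leukotriene C. Its signals were 542, 916, 606 and 421 in controls and 22.5, 306, 215 and 281 in affected dogs, with no overlap. Affected 1 was under the floor, so the difference of -1.91 ± 0.63 (limma adjusted p = 0.542) depends on it. It was -1.17 without affected 1, -1.53 when the floor was raised to the 40th percentile and -2.06 with no floor. GSTA4, which conjugates hydroxynonenal, the main aldehyde of lipid peroxidation, had signals of 2575, 1957, 3357 and 2880.2 in controls and 1619, 1849, 2018 and 1352 in affected dogs. Only the pair of affected 3 and control 2 crossed, and the difference was -0.64 ± 0.25 (limma adjusted p = 0.595).

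The other transferases differed by less or varied more. GSTK1, of mitochondria and peroxisomes, had signals of 2198, 5545, 2059 and 2333 in controls and 2343, 2421, 1994 and 1668 in affected dogs, and its difference of -0.41 ± 0.33 was -0.07 without control 2. GSTO1, which reduces dehydroascorbate, differed by -0.30 ± 0.30, and its other 2 tested probe sets by -0.18 and -0.07. MGST1, a membrane-bound transferase abundant in liver, was the most variable member among controls, at 679, 79, 4054 and 1013, beside 931, 196, 225 and 796 in affected dogs. The highest value was in control 3, whose fat cell marker sum was also the highest, and the lowest in control 2, whose fat cell marker sum of 328 was the lowest. The match in these controls was not planned beforehand, and the sum of control 3 was mostly ADIPOQ. Affected 1 to 4 had fat cell marker sums of 569, 694, 412 and 510, so the lowest affected MGST1 was in the dog with the highest affected sum. The part of fat in the MGST1 values was not tested. The difference of -0.69 ± 1.02 was 0.17 without control 3 and -1.73 without control 2. GSTO2 was too dim to be tested, under the floor in 7 of 8 dogs.

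The glucuronosyltransferases gave 1 tested member. UGT2B31, a dog enzyme that conjugates phenols and opioids, had signals of 68.5, 129.7, 53.9 and 112 in controls and 145, 123, 145 and 173 in affected dogs. Only affected 2 fell within the control range, and the difference was 0.77 ± 0.36 with a 95% interval from -0.02 to 1.56 (limma adjusted p = 0.645). With a floor at the 40th percentile it was 0.41. UGT1A6 was too dim to be tested, at 49 to 82.8 in controls and 33.9 to 103 in affected dogs.

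The superoxide dismutases lay in opposite directions. SOD2, the mitochondrial manganese enzyme that inflammatory signals are known to induce, had signals of 1367, 3694, 672 and 1479.9 in controls and 4054, 2454, 2112 and 13553 in affected dogs. Affected 4 stood far above all others, control 2 lay within the affected range, and the difference was 1.46 ± 0.63 (limma adjusted p = 0.627). It was 0.88 without affected 4 and 1.89 without control 2. The other tested probe set of SOD2 differed by 0.84 ± 0.47, with affected 4 again highest at 5860.2. SOD1, the copper and zinc enzyme of the cytosol, had signals of 6264, 9156, 8075 and 6196 in controls and 5393, 6045, 6132 and 5432 in affected dogs. All 4 affected dogs lay below all 4 controls by a narrow margin, and the difference was -0.35 ± 0.22 (unadjusted p = 0.134, limma adjusted p = 0.703), or 0.784 of the control signal. It was -0.22 with array weights.

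The 4 tested glutathione peroxidases all had intervals that include 0 and groups that overlap. GPX1, the main cytosolic form, had signals of 4193 to 8602 in controls and 5512 to 12979 in affected dogs and differed by 0.35 ± 0.33, while its 2 other tested probe sets differed by 0.00 and -0.02. Without affected 1, its highest dog, the difference was 0.13. GPX8, of the endoplasmic reticulum, differed by -0.35 ± 0.21, with controls close together at 2928, 3280.4, 2975 and 3009 and affected dogs at 2089.5, 2063, 2956 and 2545, where affected 3 fell among the controls. GPX2, known from the gut, differed by 0.27 ± 0.34, which was 0.03 without affected 2 and 0.54 without affected 3. GPX5, known from the epididymis, was under the floor in 7 of 8 dogs.

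GPX3, the secreted peroxidase of plasma, which kidney and heart express, had a wider range than its relatives. Its signals were 1021, 10063, 710.1 and 2081 in controls and 1833, 5962, 364 and 1660.0 in affected dogs. The 8 dogs lay in the same order by GPX3 as by the heart muscle marker mean, from affected 3 at the bottom to control 2 at the top, a pattern singled out after its values were seen and given with no test. The difference was -0.30 ± 0.92, with a 95% interval from -2.35 to 1.75. It was 0.33 with the heart muscle mean as a covariate and 0.48 without control 2. Its 4 tested probe sets ranged from -1.37 to 0.20.

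**Figure D3:**
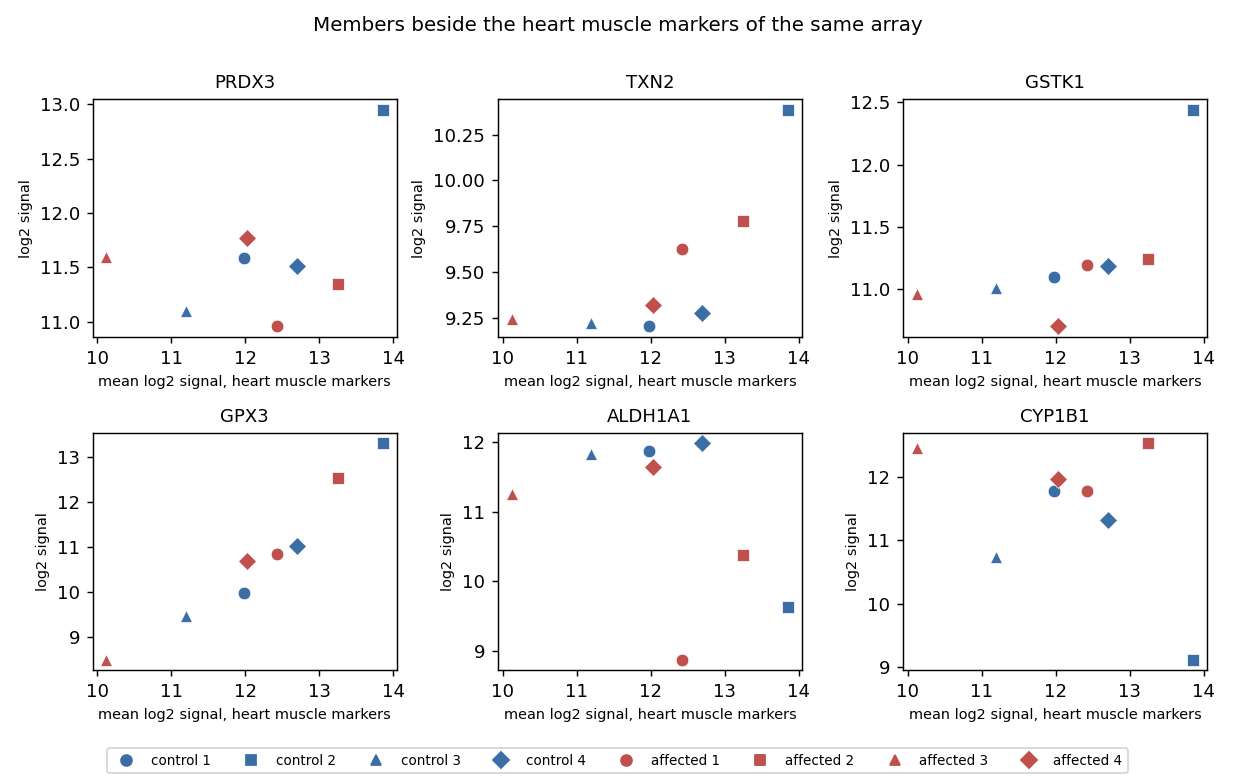
Log2 signal of 6 members (vertical axes) against the mean log2 signal of the heart muscle markers on the same array (horizontal axes), 1 point per dog, controls in blue and affected dogs in red. The 6 members were picked by hand from the 51 tested. Control 2, at 13.86 on the horizontal axis, is the highest dog for PRDX3, TXN2, GSTK1 and GPX3 and the lowest for CYP1B1. Affected 2, the next at 13.25, is also next highest for TXN2, GSTK1 and GPX3. It lies at 11.35 for PRDX3 and is the highest dog for CYP1B1.

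The peroxiredoxins, which reduce hydrogen peroxide, most of them with electrons from thioredoxin, were bright in every dog except for PRDX4. PRDX2, an abundant cytosolic form, had signals of 4996, 5976, 3976 and 5151 in controls and 2393, 2814, 4715 and 3476 in affected dogs. Affected 3 lay among the controls, and the difference was -0.62 ± 0.26 (limma adjusted p = 0.617). PRDX1, its close cytosolic relative, differed by -0.40 ± 0.29, and again affected 1 and affected 2 were the lowest dogs, at 3705 and 4503. PRDX3, the mitochondrial form, had signals of 3081, 7898, 2195 and 2920.1 in controls and 1989, 2609, 3084 and 3489 in affected dogs. Its difference of -0.37 ± 0.38 was 0.02 without control 2. PRDX4 of the endoplasmic reticulum, PRDX5, which is found in several compartments, and PRDX6, which is also a phospholipase, differed by 0.06 ± 0.36, 0.28 ± 0.34 and 0.22 ± 0.22. Without affected 1 the difference of PRDX5 was 0.03, without affected 2 that of PRDX4 was 0.35 and without control 3 that of PRDX6 was 0.11. For PRDX6 the 95% interval was -0.27 to 0.71, and its 3 tested probe sets ranged from -0.26 to 0.26.

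In the thioredoxin group, TXN, the cytosolic thioredoxin that supplies electrons to peroxiredoxins, was higher in every affected dog than in every control. Its signals were 6142, 6383, 5576 and 6125 in controls and 11326, 6804, 7911 and 10047 in affected dogs. The controls lay close together, with an SD of 0.08 on the log2 scale beside 0.33 in affected dogs, and affected 2 came closest to them. The difference was 0.55 ± 0.22, or 1.46 times (limma adjusted p = 0.614), and it ranged from 0.43 to 0.67 when each dog was left out. Its reductase TXNRD1 differed by 0.09 ± 0.33 and the mitochondrial reductase TXNRD2 by 0.36 ± 0.35. The mitochondrial thioredoxin TXN2 had signals of 589.5, 1337, 598 and 619 in controls and 789, 879, 606 and 639 in affected dogs, with control 2 far above the other controls, and differed by -0.03 ± 0.31.

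TXNIP, which binds and inhibits thioredoxin and responds to glucose, had signals of 11209, 10312, 14805 and 12898 in controls and 22448, 9486, 16221 and 7486 in affected dogs. The affected dogs thus lay on both sides of the controls, and the difference was 0.06 ± 0.34. Its other tested probe set differed by -0.77 ± 0.47, so the probe sets do not give 1 direction. TXNL4A, which despite its fold is a spliceosome protein, differed by 0.29 ± 0.25 with its 4 tested probe sets from -0.37 to 0.69, and TXNDC12, of the endoplasmic reticulum, by 0.14 ± 0.26. TXNL1 was too dim to be tested.

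Across the 51 tested members, control 2 was the dog that stood apart most often. It was the highest of the 4 controls for 32 members, 62.7%, where it was the highest for 32.9% of all tested probe sets. It was the lowest for 13 members, 25.5%, beside 36.1% of all tested probe sets. Its median log2 signal over members exceeded the mean of the other 3 controls by 0.35, beside -0.02 over all tested probe sets. All 6 peroxiredoxins and both superoxide dismutases had their highest control value in this dog, against 3 of 9 aldehyde dehydrogenases. The greatest excesses over the other controls were in GPX3 (3.13), SOD2 (1.74), PRDX3 (1.55) and ALDH1L1 (1.40), and the greatest deficits in MGST1 (-4.15), ALDH1A1 (-2.27) and CYP1B1 (-2.16). Without control 2 the members with an unadjusted p under 0.05 numbered 14, 5 higher and 9 lower, beside 1244 of 14280 tested probe sets. None of the members passed limma's adjusted threshold there (smallest adjusted p = 0.302).

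**Figure D4:**
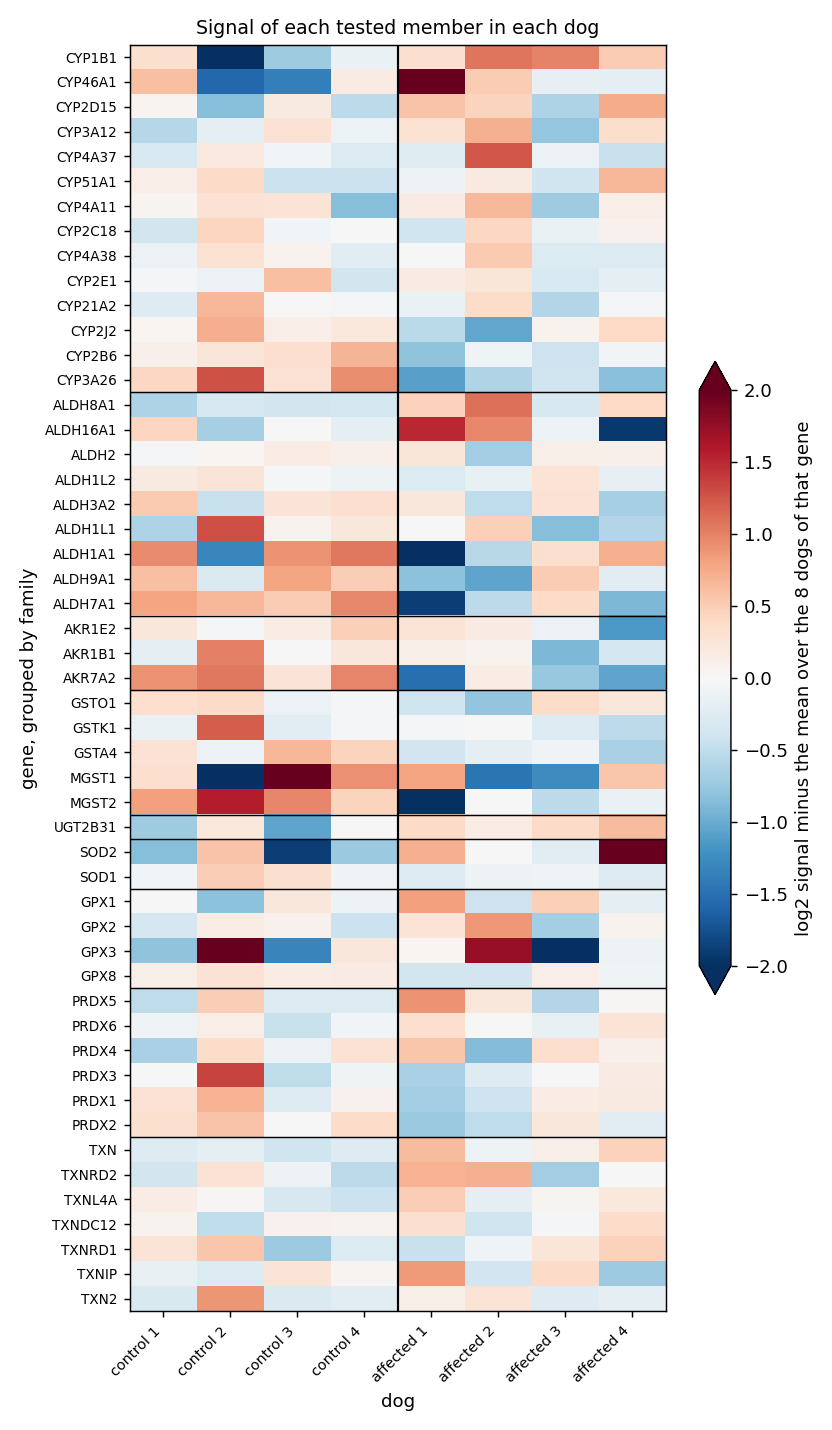
Log2 signal of the 51 tested members in each of the 8 dogs, as the difference from the mean of that gene over the 8 dogs (colour, red above and blue below, cut at 2 in either direction), grouped by family, with controls left of the line. Control 2 is above the mean for all 6 peroxiredoxins, and CYP3A26 and MGST2 are above it in all controls and below it in all affected dogs.

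The spread between dogs was somewhat wider in the affected group. The median SD of the members was 0.40 in controls and 0.50 in affected dogs, and 34 of 51 members had the greater SD in affected dogs, beside 8465 of 14705 tested probe sets with medians of 0.41 and 0.47. Of the 40 intervals that include 0, 18 lie within a log2 difference of 1 in either direction, and for the other 22 the interval also holds a log2 difference of 1 or more in size.

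**Figure D5:**
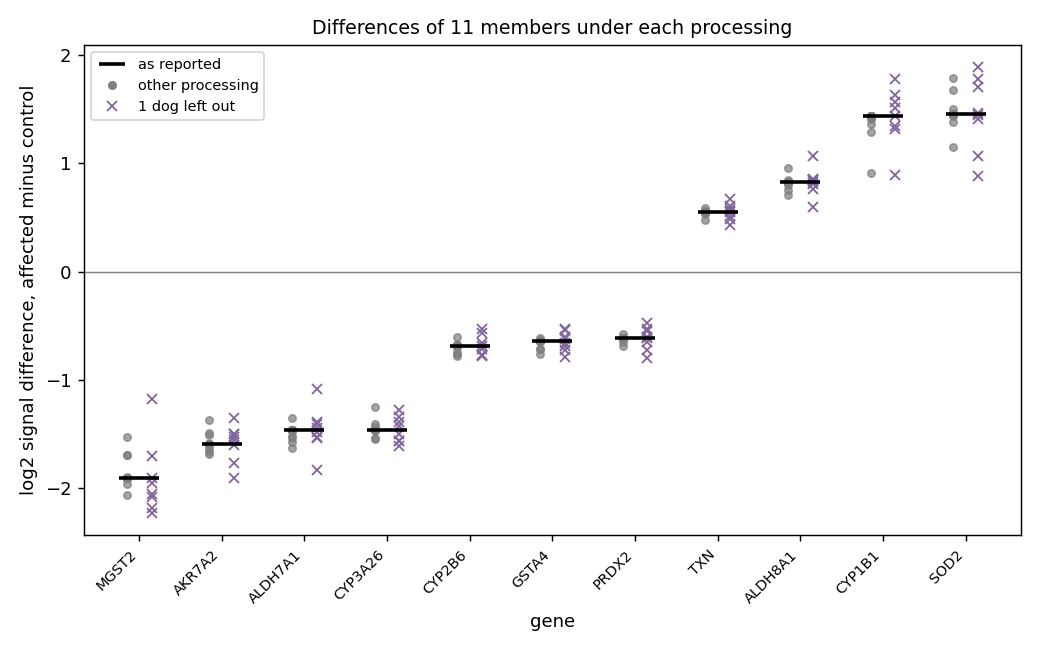
Log2 signal difference (affected minus control, vertical axis) of the 11 members with an unadjusted p under 0.05, as reported (black bar), with other processing (grey points) and with 1 dog left out (crosses). Each keeps its side of 0, and MGST2, CYP1B1 and SOD2 move most, to -1.17, 0.90 and 0.88 with 1 dog left out.

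The supply of glutathione and NADPH, the regulators of these enzymes and related oxidases were followed in a list of 78 genes, of which 45 were named on the array and 43 tested. Of these 24 had higher and 19 lower means in affected dogs (median 0.04), 0 passed limma's adjusted threshold (smallest adjusted p = 0.33), and 2 higher and 3 lower had an unadjusted p under 0.05. These 5 are 11.6% of the tested genes in the list, beside 7.83% of all tested probe sets and 8.72% of the brightest probe sets. The groups did not overlap for 2 higher and 2 lower of the 43 tested genes, beside 4.66% of all tested probe sets and 5.08% of the brightest probe sets. CYBB, the catalytic chain of the phagocyte NADPH oxidase that makes superoxide, had signals of 1058, 175, 499 and 603 in controls and 1896, 1563, 2588 and 2242 in affected dogs, with no overlap, and differed by 2.07 ± 0.47 (limma adjusted p = 0.33). XDH, the xanthine oxidoreductase that can also make superoxide, had signals of 402, 186, 364 and 420.2 in controls and 998, 595, 859 and 550.2 in affected dogs and differed by 1.15 ± 0.33 (limma adjusted p = 0.452), again with no overlap. SULT1A1, which attaches sulfate to phenols, had signals of 1767, 3069, 1984 and 1393 in controls and 1210.1, 1227, 1153 and 735 in affected dogs. Its groups did not overlap either, and it differed by -0.89 ± 0.30 (limma adjusted p = 0.545). EPHX2, the soluble epoxide hydrolase, and TPMT, a methyltransferase of thiopurines, were the other 2 lower genes at an unadjusted p under 0.05, at -1.05 ± 0.36 and -1.09 ± 0.39, and of these TPMT had no overlap. The summed macrophage signal was higher in every affected dog than in every control, as given above, though single markers overlapped. The part of macrophages in the values of CYBB, a gene of phagocytes, was not tested.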

How the data were processed

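Total RNA from frozen leaflets was biotin-labelled and hybridised to Affymetrix arrays, one for each dog (per the labels). What was deposited are linear intensity signals made with MAS5 by the authors, per the submitters' processing notes. Other steps are not stated in what was used here. MAS5 signals near the background are imprecise. The table held 23913 rows, 77 of them array controls, which were left out. A single symbol was annotated to 10549 rows, more than 1 to 138 and no symbol to 13226. For 54 of 57 members the gene identifier was found in RefSeq (dog assembly UU_Cfam_GSD_1.0), and 0 symbols differed. No sequences or coordinates are shown, since none were used here.

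Signals were rescaled to a common trimmed mean (2% off each end), raised to 34.2 (5.10 on the log2 scale, the floor, placed at the 20th percentile) where lower, and logged. Tests were run on probe sets above the 40th percentile of their array in 4 or more of the 8 dogs. Of 23836 probe sets 14705 passed, and 0 members passed through 1 group alone. Groups were compared with limma (version 3.58.1, R 4.3.3; eBayes with an intensity trend, two-sided), adjusted by Benjamini-Hochberg over all tested probe sets. Differences are log2, affected minus control, and errors after a difference are standard errors with 4 dogs per group. The labels call the dogs biological replicates.

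The members and lists were chosen with earlier results of these data known. The naming rule took members without overlap, the 3 with the smallest p per family, those in a fixed list of well-known genes, and the 3 pathway genes with the smallest p. The other tested members are given with values to account for every member, among them CYP46A1 with its signals, chosen after its values were seen, as were EPHX2 and TPMT. Alternatives were other normalizations, filters and floors, other eBayes priors, array weights, a replicate block, a heart muscle covariate, means over probe sets, and leaving out each dog.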

Additional observations from a re-analysis of the deposited data

Results flagged for a closer look

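In groups of 4 dogs, 9 of 132 group values of genes, families or the heart muscle mean had 1 dog far from the other 3, where chance gives about 1 in 20. Control 2 was that dog for 5 of them. Its log2 signal of ALDH1A1 was 9.62 with the other controls between 11.83 and 11.98, that of GSTK1 was 12.44 with the others between 11.01 and 11.19, that of TXN2 was 10.39 with the others between 9.20 and 9.27. That of TXNDC12 was 10.47 with the others between 11.05 and 11.07, and its mean deviation over the 9 aldehyde dehydrogenases was -0.088 with the others between 0.24 and 0.28. Control 1 had the lowest ALDH8A1 at 6.83, with the other controls between 7.09 and 7.12. Affected 1 had the lowest MGST2, at the floor of 5.10, with the other affected dogs between 7.75 and 8.26. Affected 2 had the lowest ALDH2 at 12.43, with the others between 13.23 and 13.36. Affected 4 had the lowest SULT1A1 at 9.52, with the others between 10.17 and 10.26.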

How the results depend on the processing

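No member passed the adjusted threshold of 0.05 under any of the 22 alternatives, where the smallest adjusted p of a member was 0.122 with array weights. Over all probe sets the count of 0 became 4 with the replicate block and 0 to 1 when each dog was left out. With the block, 12 members had an unadjusted p under 0.05, beside 1412 of 14705 tested probe sets. The labels give no pairing of the dogs by number. Deviations of same-numbered dogs correlated at -0.12, 0.41, 0.02 and -0.01, and only control 2 correlated best with its own number. So few correlations cannot settle whether same-numbered dogs were handled together. Centring arrays on the median put the higher members at an unadjusted p under 0.05 at 2 and the higher members without overlap at 1. The stricter filter, which left 41 members, put the lower members at 4 and 3. Over all tested probe sets, in either direction, centring gave 1045 of 14705 and 3.76%, and the stricter filter 897 of 10690 and 4.87%. Leaving out each dog gave 1 to 5 higher and 4 to 9 lower members at an unadjusted p under 0.05, 2 to 4 higher and 6 to 10 lower members without overlap, and a median over members of -0.19 to 0.0060. Over the 14280 to 14328 probe sets then tested, in either direction, 670 to 1791 had an unadjusted p under 0.05 and 5.98% to 13% had no overlap. The heart muscle marker difference was -0.48 and ranged from -0.91 to 0.13. Of the 56 genes given with a tested difference (51 members and 5 of the pathway list), 48 kept their direction under the alternatives that kept all dogs, and 39 under these and when a dog was left out. Leaving out a single dog turned the difference or moved it by over 1.5 times for 39 of the 56, and for none of AKR7A2, ALDH7A1, ALDH8A1, ALDH9A1, CYP2B6, CYP3A26, GPX8, GSTA4, PRDX2, SOD1, TXN, UGT2B31 and the 5 pathway genes. With array weights CYP2C18 was 0.067, CYP4A38 0.088, ALDH16A1 -0.0030, CYP2E1 0.079, GPX3 0.071, TXN2 0.18 and TXNIP -0.018. With the heart muscle covariate CYP2C18 was 0.069, CYP4A38 0.066, GPX3 0.33, TXN2 0.10 and TXNIP -0.020. With no floor ALDH16A1 was -0.0062. Quantile normalization gave PRDX4 -0.028 and TXN2 0.0030, centring on the median PRDX4 -0.018 and TXNIP -0.017, and the mean over probe sets TXNIP -0.36. Leaving out a dog gave ranges of -0.26 to 0.89 for ALDH16A1, -0.34 to 0.0060 for CYP21A2, -0.15 to 0.13 for CYP2C18, -0.14 to 0.38 for CYP4A11, -0.15 to 0.41 for CYP4A37, -0.19 to 0.086 for CYP4A38, -0.013 to 0.29 for TXNDC12, -0.22 to 0.092 for ALDH2, -0.17 to 0.15 for CYP2E1, -0.016 to 0.33 for CYP51A1, -0.93 to 0.48 for GPX3, -1.73 to 0.17 for MGST1, -0.60 to 0.016 for PRDX3, -0.15 to 0.35 for PRDX4, -0.14 to 0.26 for TXN2, -0.22 to 0.31 for TXNIP and -0.14 to 0.29 for TXNRD1. Apart from fewer probe sets under the stricter filter, the cause was not tested. Low signals, as for ALDH8A1, CYP2D15, CYP2J2, CYP3A12 and UGT2B31, and in affected dogs for CYP3A26 and AKR7A2, limit what the arrays can show.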

Other observations

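Of 9 probe sets with several symbols, at least 1 of them of these families, 5 were bright enough to be tested and all overlapped between the groups. The brightest of those that name GSTP1, a cytosolic glutathione transferase, together with 2 uncharacterised loci had signals of 4371, 8747, 6199.5 and 4902 in controls and 6225, 5173, 3893 and 3234 in affected dogs and differed by -0.38 ± 0.30 (limma adjusted p = 0.747). Its highest value was again that of control 2. The other probe set that names GSTP1 differed by -0.30 ± 0.31. The probe set shared by PRDX1 and 2 further loci differed by 0.13 ± 0.32, beside -0.40 for the probe set of PRDX1 alone. The probe set shared by GSTA4 and 1 further locus, with affected 2 as its highest dog, differed by -0.13 ± 0.36, beside -0.64 for the probe set of GSTA4 alone. The 2 probe sets shared by CYP3A4 and CYP3A12, and the 2 shared by CYP2A13 and CYP2A7, were too dim to be tested.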
